A study of Homo sapiens with 6 samples.

Results

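TGF-beta pathway genes in REH cells are described here through 10 genes: the ligand gene TGFB1, the receptor genes TGFBR1 and TGFBR2, the signal-carrying SMAD2, SMAD3 and SMAD4, and the inhibitor genes SMAD7, SKI, SKIL and TGIF1. They were taken by gene symbol from a table of 18216 genes, and all 10 were found. REH is a human cell line of B-cell precursor acute lymphocytic leukemia, and a single line was used. SNS-032 is an inhibitor of CDK9, the kinase that releases RNA polymerase II into elongation, and it also acts on other cyclin-dependent kinases. REH cells received 200 nM SNS-032 or its solvent DMSO, and RNA was collected after 24 h, with 3 libraries per treatment. The comparison asks how the transcript levels of this pathway stood in SNS-032-treated cells against DMSO-treated cells. The labels name no added TGF-beta in either group.

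In this pathway, TGF-beta binds the receptor TGFBR2, which phosphorylates its partner TGFBR1. TGFBR1 then phosphorylates SMAD2 and SMAD3, which join SMAD4 and enter the nucleus to act on target genes. Feedback comes from SMAD7, which blocks TGFBR1 and brings ubiquitin ligases to it, and from SKI, SKIL (also called SnoN) and TGIF1, which bind SMADs on DNA and recruit corepressors. SMAD7 and SKIL are themselves induced by the pathway. In B cells and their precursors TGF-beta is known as a brake on proliferation.

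The members moved in both directions. TGFBR2, SMAD3, SMAD4, SMAD7 and SKIL were higher after SNS-032, and TGFB1, TGFBR1, SMAD2 and TGIF1 were lower, each at an adjusted p under 0.05 from limma, a linear model fitted across all genes. Genes entered the test when 1 treatment or both averaged 1 FPKM or more, which 9 members did and SKI did not. FPKM are fragments scaled to transcript length and to the mapped fragments of the library, so that levels can also be set side by side between genes. All 9 passed, but so did 89.2% of the 12239 genes tested, and 39.9% of all genes tested were higher and 49.3% lower. The number of members called is therefore close to that of genes in general, and only direction and size are described for each. The libraries of the treatments did not overlap for any of the 10 members, which was also so for 89.7% of the genes tested. The median log2 fold change was 0.63 over the 9 members tested and −0.14 over all genes tested. SMAD7 passed the filter only through the SNS-032 libraries, so that this median is no support for a shift of the group. Fold changes on the log2 scale are of FPKM + 1, SNS-032 over DMSO, and understate the change of weakly expressed genes. Without regard to sign, the median log2 fold change over all genes tested was 0.76. TGFB1, SMAD2 and SKIL changed by less than that, at −0.52, −0.59 and 0.63.

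**Figure D1:**
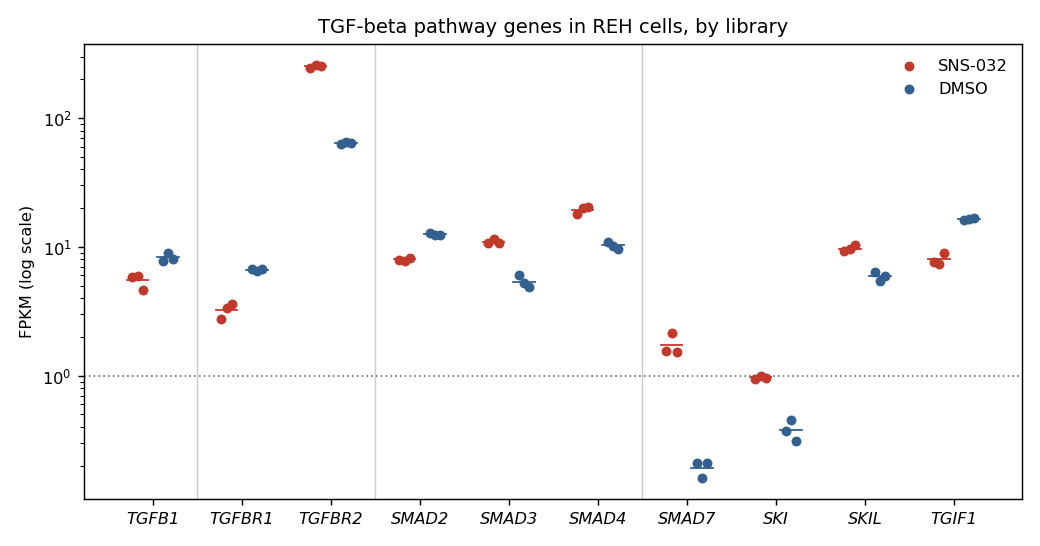
FPKM of each member on a logarithmic axis, 1 point per library and a line at the mean of 3 libraries, with SNS-032 in red left of DMSO in blue; the dotted line is the filter of 1 FPKM, and vertical lines part ligand, receptors, SMADs and inhibitors. TGFBR2 stands above all other members under both treatments, and SMAD7 and SKI lie at the bottom.

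Libraries were close in scale, though their FPKM totals parted by treatment. The totals were 470094.5 to 491886.5 in SNS-032 libraries and 457826.4 to 464307.5 in DMSO libraries. Genes at 1 FPKM or more numbered 11837 to 11928 in SNS-032 libraries and 10765 to 10785 in DMSO libraries. The depth in reads is unknown, so no counting error can be given and precision rests on the spread between libraries. The labels do not say whether the 3 libraries of a group came from separate cultures, so that p-values may measure technical spread alone. FPKM are relative to the library's total, and in bulk RNA fewer cells expressing a gene and less RNA per cell cannot be told apart. Higher and lower thus refer to a gene's share of the library, and the amount of RNA per cell was not measured. At this dose and time the paper reports more apoptotic and fewer proliferating (EdU-positive) REH cells. The part of these changes in the values was not tested. Of 14 B lineage markers 13 were tested, 3 higher and 10 lower, with a summed FPKM of 1217 to 1359 in SNS-032 libraries and 2040 to 2191 in DMSO libraries. PAX5, the transcription factor that fixes B-cell identity, was at 63.3 FPKM after SNS-032 and 82.4 FPKM with DMSO. MME, which encodes the precursor B-cell antigen CD10, was at 0.0833 FPKM after SNS-032 and 0.0733 FPKM with DMSO. For other cell types, the summed FPKM of 6 of 8 listed myeloid markers found in the table was 21.3 to 24.5 in SNS-032 libraries and 8.22 to 8.8 in DMSO libraries, and that of 5 of 7 T-cell markers was 2.25 to 4.26 in SNS-032 libraries and 0.28 to 0.37 in DMSO libraries. Within the myeloid list LYZ was at 16.7 FPKM after SNS-032 and 3.15 FPKM with DMSO, and CSF1R was at 1.05 FPKM after SNS-032 and 4.89 FPKM with DMSO. Nearly all of the T-cell sum was CD3G, at 2.94 FPKM after SNS-032 and 0.257 FPKM with DMSO, and CD8A was at 0.243 FPKM after SNS-032 and 0.03 FPKM with DMSO. CD3D, another defining T-cell marker, was listed at 0 FPKM in every SNS-032 library. The sum of 5 of 8 megakaryocyte and erythroid markers was 8.49 to 9.71 in SNS-032 libraries and 8.18 to 9.92 in DMSO libraries, and that of 7 of 9 stromal, endothelial and epithelial markers was 2.65 to 3.03 in SNS-032 libraries and 1.33 to 1.56 in DMSO libraries. The sum of megakaryocyte and erythroid markers held opposite changes, with ITGA2B at 7.14 FPKM after SNS-032 and 2.26 FPKM with DMSO and GP9 at 1.75 FPKM after SNS-032 and 6.89 FPKM with DMSO. The part of these markers in the values of the members was not tested.

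The starts of a few members are shown: TGFBR2 and TGFBR1 moved in opposite directions, and SMAD7 and SKIL are the tested feedback genes that were higher. They are not the members with the largest changes throughout, and SKI, which was not tested, had no matched window. RefSeq windows on GRCh38.p14 around transcription starts were matched for 9 of the members, and where a gene had several starts the one nearest to its GENCODE v29 gene start was taken. The windows are chr3:30606351-30606650 on the plus strand for TGFBR2, chr9:99103802-99104101 on the plus strand for TGFBR1, chr18:48950916-48951215 on the minus strand for SMAD7 and chr3:170357465-170357764 on the plus strand for SKIL, each written 5′ to 3′. Capitals mark the SMAD box, with the letters CAGAC or, on the other strand, GTCTG, and the AP-1 site, with the letters TGACTCA or, on the other strand, TGAGTCA.
TGFBR2: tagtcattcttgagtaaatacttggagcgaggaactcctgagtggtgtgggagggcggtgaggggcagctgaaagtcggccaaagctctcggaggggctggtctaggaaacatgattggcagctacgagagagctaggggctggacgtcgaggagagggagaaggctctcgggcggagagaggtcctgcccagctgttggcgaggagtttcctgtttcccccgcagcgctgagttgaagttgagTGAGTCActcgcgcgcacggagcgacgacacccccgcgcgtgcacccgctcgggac
TGFBR1: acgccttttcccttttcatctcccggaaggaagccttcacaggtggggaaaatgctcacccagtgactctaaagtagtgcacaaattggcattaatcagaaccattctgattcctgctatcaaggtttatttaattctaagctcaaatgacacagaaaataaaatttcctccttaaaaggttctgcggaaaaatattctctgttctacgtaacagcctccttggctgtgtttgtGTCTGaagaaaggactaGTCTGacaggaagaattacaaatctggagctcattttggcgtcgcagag
SMAD7: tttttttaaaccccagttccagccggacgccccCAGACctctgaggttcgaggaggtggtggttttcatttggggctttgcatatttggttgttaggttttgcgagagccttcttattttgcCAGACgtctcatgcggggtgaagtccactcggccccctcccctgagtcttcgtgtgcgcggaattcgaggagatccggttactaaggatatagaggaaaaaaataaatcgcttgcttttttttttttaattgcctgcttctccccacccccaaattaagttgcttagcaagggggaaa
SKIL: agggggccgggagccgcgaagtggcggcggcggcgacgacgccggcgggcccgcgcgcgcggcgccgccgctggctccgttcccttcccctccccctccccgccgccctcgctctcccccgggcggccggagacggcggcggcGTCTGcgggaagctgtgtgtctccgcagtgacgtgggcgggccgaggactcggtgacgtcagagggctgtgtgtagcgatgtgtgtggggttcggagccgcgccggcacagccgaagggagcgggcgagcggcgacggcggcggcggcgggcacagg

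The TGFBR2 window held 1 AP-1 site and no SMAD box. The TGFBR1 and SMAD7 windows held 2 SMAD boxes each, and the SKIL window held 1. A SMAD box was found in 45.3% of all 35116 windows and in 5 of the 9 member windows, and an AP-1 site was found in 4.95% of all windows. The palindrome GTCTAGAC, which holds both orientations of a shorter SMAD site, was in 0.202% of all windows and in no window of the 9 members. The windows do not reach every gene start. The RefSeq starts used lay inside the genes, 1087 bases past the GENCODE start for SMAD7, 1839 for SMAD3 and 1819 for SMAD4. The sequence around these GENCODE starts was therefore not searched for the palindrome or the other motifs. The windows shown differed in base composition. GC content was 61.7% for TGFBR2, 41.7% for TGFBR1, 48.3% for SMAD7 and 79% for SKIL, against a median of 58.7% over all windows. Windows at other starts of a gene differed from the one shown. For TGFBR1, chr9:99104833-99105132 had a GC content of 80% and 2 SMAD boxes, and chr9:99105325-99105624 had 80.7% and no SMAD box. For TGFBR2, chr3:30606106-30606405 had 42.3% and no AP-1 site. Of all 30 windows of the 9 members, 15 held a SMAD box. A match of letters is a description and not evidence of a bound site.

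TGFBR2 showed the largest log2 fold change among the members. The gene, on chromosome 3 of GRCh38 from 30606502 to 30694142, had 245.57, 259.82 and 252.73 FPKM in the SNS-032 libraries, against 63.34, 64.72 and 64.42 FPKM in the DMSO libraries. Every SNS-032 library was above every DMSO library by far more than the spread within a treatment. The level was 3.94-fold higher, with a log2 fold change of 1.96 (standard error 0.0388, adjusted p = 1.31e-12 from limma), and 96.3% of all genes tested had a lower fold change. TGFBR2 was already the most abundant member with DMSO, above 90.6% of the genes tested, and stood above 98.2% of them after SNS-032.

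TGFBR1, the kinase that passes the signal on to SMAD2 and SMAD3, fell. It had 2.78, 3.36 and 3.6 FPKM in the SNS-032 libraries, against 6.74, 6.46 and 6.74 FPKM in the DMSO libraries. Its level was 2.05-fold lower, with a log2 fold change of −0.85 (standard error 0.0815, adjusted p = 7.29e-07). The receptor chains thus changed in opposite directions. Within a library, the ratio of TGFBR2 to TGFBR1 was 88.3, 77.3 and 70.2 after SNS-032 and 9.4, 10 and 9.56 with DMSO, 8.11-fold higher in SNS-032-treated cells. The exact two-sided permutation test over the 6 libraries gave p = 0.1 for this ratio, the smallest p that 3 libraries against 3 allow. TGFBR1 lies on chromosome 9 from 99104038 to 99154192.

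TGFB1, the gene of the main TGF-beta ligand of blood cells, also fell. It had 5.85, 5.95 and 4.66 FPKM after SNS-032, against 7.81, 8.91 and 8.12 FPKM with DMSO. SNS-032 replicate 3 was the lowest library, and the highest SNS-032 library lay below the lowest DMSO library. The level was 1.51-fold lower, with a log2 fold change of −0.52 (standard error 0.0873, adjusted p = 0.000117), the smallest change among the tested members. TGFB1, on chromosome 19 from 41301587 to 41353911, shares 215 of its 3238 exonic bases with HNRNPUL1 on the opposite strand. HNRNPUL1, an RNA-binding protein gene, had 85.4 ± 2.37 FPKM after SNS-032 and 178 ± 4.41 FPKM with DMSO (SD, n = 3 each). Whether the reads were assigned by strand is not given in the sources used here, and the part of these shared bases in the TGFB1 value was not tested.

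**Figure D2:**
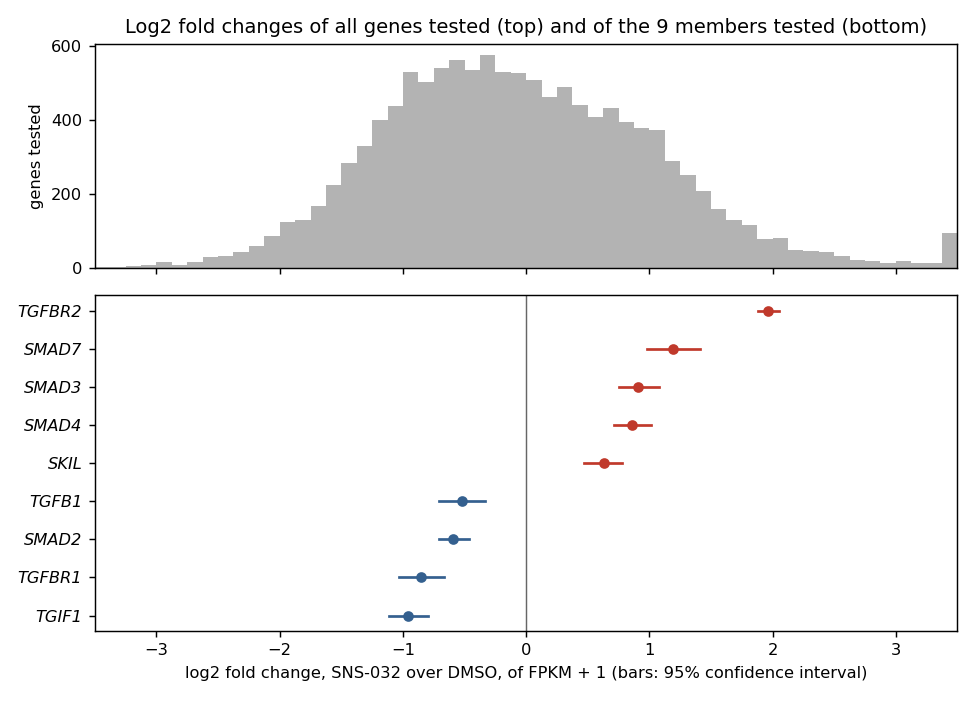
Log2 fold changes of FPKM + 1, SNS-032 over DMSO: the top panel counts all 12239 genes tested (values beyond the axis are collected in the end bins), and the bottom panel gives the 9 members tested with 95% confidence intervals from limma. The members run from −0.96 for TGIF1 to 1.96 for TGFBR2, and no interval includes 0.

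SMAD2 and SMAD3, the SMADs that the receptor phosphorylates, parted. SMAD2 fell to 7.89, 7.83 and 8.24 FPKM in the SNS-032 libraries, against 12.83, 12.3 and 12.44 FPKM in the DMSO libraries. SMAD3 rose to 10.73, 11.56 and 10.72 FPKM in the SNS-032 libraries, against 6, 5.24 and 4.92 FPKM in the DMSO libraries. SMAD2 was thus above SMAD3 in all DMSO libraries and below it in all SNS-032 libraries. The log2 fold change was −0.59 for SMAD2 (standard error 0.057, adjusted p = 8.13e-07) and 0.91 for SMAD3 (standard error 0.0743, adjusted p = 1.61e-07). The ratio of SMAD3 to SMAD2 was 1.36, 1.48 and 1.3 after SNS-032 and 0.468, 0.426 and 0.395 with DMSO (exact permutation p = 0.1). The sum of both was 18.62, 19.39 and 18.96 FPKM in SNS-032 libraries and 18.83, 17.54 and 17.36 FPKM in DMSO libraries. These sums overlapped between the treatments, while the share of SMAD3 in them was 57.9% ± 1.56 after SNS-032 and 30.0% ± 1.77 with DMSO (SD, n = 3 each).

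SMAD4, the common partner of the phosphorylated SMADs, rose. It had 17.96, 20.04 and 20.31 FPKM after SNS-032, against 10.98, 10.21 and 9.57 FPKM with DMSO. It was 1.9-fold higher, with a log2 fold change of 0.86 (standard error 0.0676, adjusted p = 1.17e-07). SMAD4 made up 50.5% ± 1.33 of the summed FPKM of SMAD2, SMAD3 and SMAD4 in SNS-032 libraries and 36.4% ± 0.737 in DMSO libraries (SD, n = 3 each). The sum of the 3 genes was 36.58, 39.43 and 39.27 FPKM after SNS-032, above its 29.81, 27.75 and 26.93 FPKM with DMSO. SMAD2 and SMAD4 both lie on chromosome 18, from 47808957 to 47931146 and from 51028394 to 51085045, and SMAD3 lies on chromosome 15 from 67063763 to 67195195. SMAD4 shares 7.37% of its exonic bases with AC091551.1, a gene model on the same strand that is not used here, and SMAD3 shares 2.0% with an antisense gene.

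**Figure D3:**
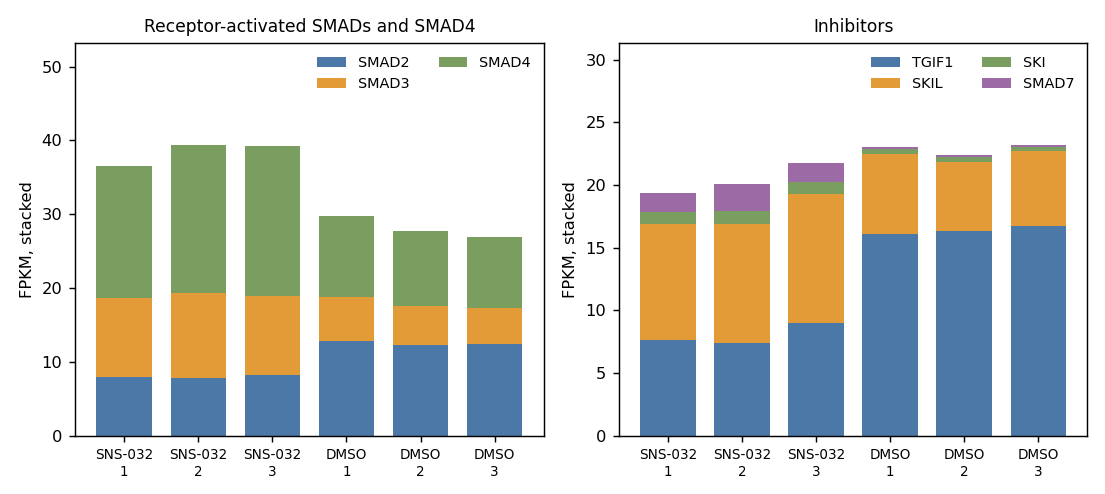
Stacked FPKM per library, the 3 SNS-032 libraries left of the 3 DMSO libraries, for SMAD2, SMAD3 and SMAD4 (left) and for the 4 inhibitor genes (right). SMAD3 and SMAD4 take up more of the SNS-032 bars than of the DMSO bars, and TGIF1 takes up less.

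The inhibitors did not move together. SMAD7, the inhibitory SMAD, was at 1.55, 2.14 and 1.53 FPKM in the SNS-032 libraries, against 0.21, 0.16 and 0.21 FPKM in the DMSO libraries. It was weakly expressed under both treatments, and SNS-032 replicate 2 was the highest library. On FPKM the level was 9.0-fold higher, the largest fold on this scale among the members. On the log2 scale with 1 FPKM added the change was 1.19 (standard error 0.0975, adjusted p = 1.7e-07), and with 0.1 FPKM added it was 2.64. The ratio of SMAD7 to SMAD3 was 0.144, 0.185 and 0.143 after SNS-032 and 0.035, 0.0305 and 0.0427 with DMSO (exact permutation p = 0.1). SMAD7 lies on chromosome 18 from 48919853 to 48952052.

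SKIL rose to 9.25, 9.56 and 10.26 FPKM in SNS-032 libraries, against 6.36, 5.46 and 5.97 FPKM in DMSO libraries. Its log2 fold change was 0.63 (standard error 0.0705, adjusted p = 3.39e-06), and all SNS-032 libraries were above all DMSO libraries. SKI, its paralog, had 0.95, 1 and 0.96 FPKM after SNS-032, against 0.37, 0.45 and 0.31 FPKM with DMSO. SKI was not among the genes tested, because its mean reached 0.97 FPKM at most. Without the filter its log2 fold change was 0.52 (standard error 0.0641, adjusted p = 0.0001 from limma). The ratio of SKIL to SKI was 9.74, 9.56 and 10.7 after SNS-032 and 17.2, 12.1 and 19.3 with DMSO (exact permutation p = 0.1), so that SKIL was the more abundant of the pair throughout. SKIL lies on chromosome 3 from 170357678 to 170396835 and SKI on chromosome 1 from 2228695 to 2310119.

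TGIF1, a homeodomain corepressor, had the lowest log2 fold change among the tested members. It had 7.62, 7.37 and 8.99 FPKM in SNS-032 libraries, against 16.12, 16.35 and 16.74 FPKM in DMSO libraries. The level was 2.05-fold lower, with a log2 fold change of −0.96 (standard error 0.0715, adjusted p = 7.31e-08). TGIF1 supplied 39.1% ± 2.32 of the summed FPKM of the 4 inhibitor genes after SNS-032 and 71.6% ± 1.56 with DMSO, while SKIL supplied 47.5% ± 0.295 after SNS-032 and 25.9% ± 1.62 with DMSO (SD, n = 3 each). The sum itself was 19.37, 20.07 and 21.74 FPKM in SNS-032 libraries and 23.06, 22.42 and 23.23 FPKM in DMSO libraries. TGIF1 lies on chromosome 18 from 3411608 to 3459978.

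The order of the levels changed as well. After SNS-032 it ran TGFBR2, SMAD4, SMAD3, SKIL, TGIF1, SMAD2, TGFB1, TGFBR1, SMAD7 and SKI, from the highest to the lowest mean FPKM. Only TGIF1 and SMAD2 overlapped among neighbors in this order, with a mean of 7.99 FPKM each. With DMSO the order was TGFBR2, TGIF1, SMAD2, SMAD4, TGFB1, TGFBR1, SKIL, SMAD3, SKI and SMAD7, and only SKIL and SMAD3 overlapped among neighbors, with means of 5.93 and 5.39 FPKM. SMAD3 held the third place in SNS-032 libraries, against the eighth in DMSO libraries.

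**Figure D4:**
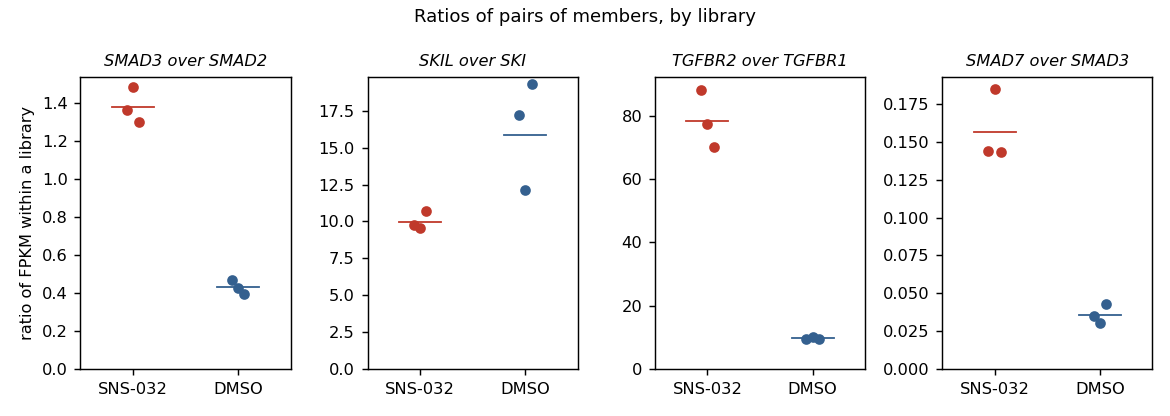
Ratio of the FPKM of pairs of members within each library, 1 point per library with SNS-032 left of DMSO, a line at the geometric mean, and axes that start at 0. All 4 ratios parted the treatments, from a fold of 8.11 for TGFBR2 over TGFBR1 down to 0.628 for SKIL over SKI.

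The 4 ratios named here were compared as a family, and the Benjamini-Hochberg adjusted p was 0.1 for each, which 3 libraries per treatment cannot go below.

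Other genes of the pathway were counted in 8 lists of 114 genes in all, of which 89 were tested. Of these, 42 were higher and 38 lower after SNS-032, against 39.9% higher and 49.3% lower over all genes tested, and 13 of the 89 were below 1 FPKM in one treatment. These lists were described by their counts alone. Of 13 tested genes for ligands and their activation, 7 were higher and 4 lower, and their median was 0.74 on the log2 scale, while 12 were higher without the filter on low values. Of these 13 genes 6 were below 1 FPKM in one treatment, and with a filter on the mean of all 6 libraries, chosen after the data were seen, 5 of 11 were higher and 4 lower, with a median of 0.16. NRROS, which tethers latent TGF-beta on blood cells, had 58.14, 62.18 and 58.9 FPKM after SNS-032, against 24.89, 26.65 and 25.39 FPKM with DMSO. LTBP3, a latent TGF-beta binding protein, had a log2 fold change of 1.12. GDF11, a ligand that also signals through SMAD2 and SMAD3, and FURIN, the protease that cleaves the TGF-beta precursor, fell by 1.31 and 0.76 on the log2 scale. TGFB2 and TGFB3, the other TGF-beta genes, stayed below 1 FPKM, at 0.56 and 0.397 FPKM after SNS-032 and 0.11 and 0.173 FPKM with DMSO.

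Among 8 tested receptor genes of the family other than the members, 3 were higher and 5 lower. The 3 higher genes, ACVR2A, BMPR1A and BMPR2, were at 1.03, 1.37 and 1.02 FPKM after SNS-032 and below 1 FPKM with DMSO, so that they passed the filter only through the treatment where they were high. With the filter on the mean of all libraries, none of 5 tested was higher and 5 were lower, and without DMSO replicate 2 the lower genes of this list numbered 3. ENG, which encodes the accessory receptor endoglin, had 7.97, 7.27 and 7.68 FPKM after SNS-032, against 19.29, 20.56 and 20.99 FPKM with DMSO. CD109, a membrane protein that binds TGF-beta, fell by 0.62 on the log2 scale. TGFBR3, or betaglycan, was not tested and was at 0.863 FPKM after SNS-032 and 0.683 FPKM with DMSO.

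Of 7 tested other SMADs and proteins that present SMADs or receptors, 4 were higher and 2 lower. HGS and TGFBRAP1, endosomal proteins that bind SMADs or receptors, had log2 fold changes of 1.07 and 1.12. ZFYVE16, another endosomal protein that binds SMADs, fell to 2.39 FPKM after SNS-032, against 5.09 FPKM with DMSO, or by 0.84 on the log2 scale. Of the SMADs that carry bone morphogenetic protein signals, SMAD1 fell by 0.70 on the log2 scale, and SMAD5 and SMAD9 had log2 fold changes of 0.61 and 0.35. SMAD6, the other inhibitory SMAD, was at 0.293 FPKM after SNS-032 and 0.0733 FPKM with DMSO and was not tested. SMAD5 and SMAD9 lie outside the rule for named genes and are given because all members of the SMAD family are listed.

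Ubiquitin ligases and deubiquitinases of the pathway split evenly, with 5 higher, 5 lower and 3 past neither side among 13 tested. SMURF2, a ligase that SMAD7 brings to the receptor, had 14.91, 15.97 and 15.05 FPKM after SNS-032, against 8.28, 7.41 and 8.54 FPKM with DMSO. ITCH, another ligase of this family, had a log2 fold change of 1.2, and STUB1 and TRIM33, ligases that act on SMADs, fell by 1.24 and 0.74. Of 11 tested genes listed as other inhibitors, 5 were higher and 6 lower. This list also holds phosphatases of SMADs, and whether each gene inhibits the pathway in these cells was not tested. LDLRAD4, which keeps SMADs from the receptor, had a log2 fold change of 0.69. CTDSP1, a phosphatase of SMADs, and BCL6, a repressor that binds SMADs, fell by 1.22 and 1.25. TGIF2, the paralog of TGIF1, is outside the rule for named genes and was at 10.9 FPKM after SNS-032 and 18.9 FPKM with DMSO.

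Of 13 nuclear partners of SMADs, 5 were higher and 8 lower. RUNX2, a runt-domain factor that binds SMADs, rose to 41.13, 44.62 and 42.42 FPKM in SNS-032 libraries, against 9.15, 9.67 and 9.06 FPKM in DMSO libraries. ZEB2, a zinc-finger repressor that binds SMADs, had a log2 fold change of 1.67. SIN3A, a corepressor that works with TGIF1 and SKI, fell to 7.54, 7.58 and 8.52 FPKM in SNS-032 libraries, against 29.95, 29.5 and 30.29 FPKM in DMSO libraries, and E2F5, which takes part in SMAD repressor complexes, fell by 1.40. Of 13 genes of other branches of the pathway, among them those of TAK1, p38 and RHOA, 4 were higher and 7 lower. TAB2 and TRAF6 had log2 fold changes of 1.68 and 1.13. MAP2K6, a kinase that activates p38, and DAXX fell by 1.03 and 0.98.

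Of the genes listed as induced through SMAD3 and SMAD4 in other cells, 13 of 18 were tested, of which 11 were higher and 1 was lower. Their median was 1.66 on the log2 scale, and 4 of the 13 were below 1 FPKM with DMSO. With the filter on the mean of all libraries, 11 of 13 were again higher, against 37.8% of the 11604 genes then tested. The list was chosen with earlier results of these data known, so these counts only describe it and are no test of the pathway. KLF10, first known as a gene induced early by TGF-beta, was at 887, 813.32 and 782.83 FPKM after SNS-032 and 9.31, 9.9 and 9.02 FPKM with DMSO. CDKN1A, the gene of p21, which halts the cell cycle and is also induced by p53, had a log2 fold change of 3.26. TSC22D1, a leucine zipper gene induced by TGF-beta in other cells, was the gene that fell, with 6.82, 7.63 and 7.08 FPKM after SNS-032 and 23.21, 23.61 and 24.43 FPKM with DMSO. SNAI1, a repressor of epithelial genes, is outside the rule for named genes and was chosen after its values were seen. SNAI1 had 8.3, 7.82 and 7.73 FPKM after SNS-032 and 0.65, 0.9 and 1.21 FPKM with DMSO. Other classical targets were hardly expressed, with CDKN2B, SNAI2 and TGFBI at 0, 0 and 0.07 FPKM after SNS-032 and 0.02, 0.00667 and 0.0533 FPKM with DMSO. ID2 and ID3, with log2 fold changes of 1.48 and 1.66, are in this list and counted among its higher genes. Genes of this list also respond to other signals, and phosphorylated SMADs were not measured here.

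**Figure D5:**
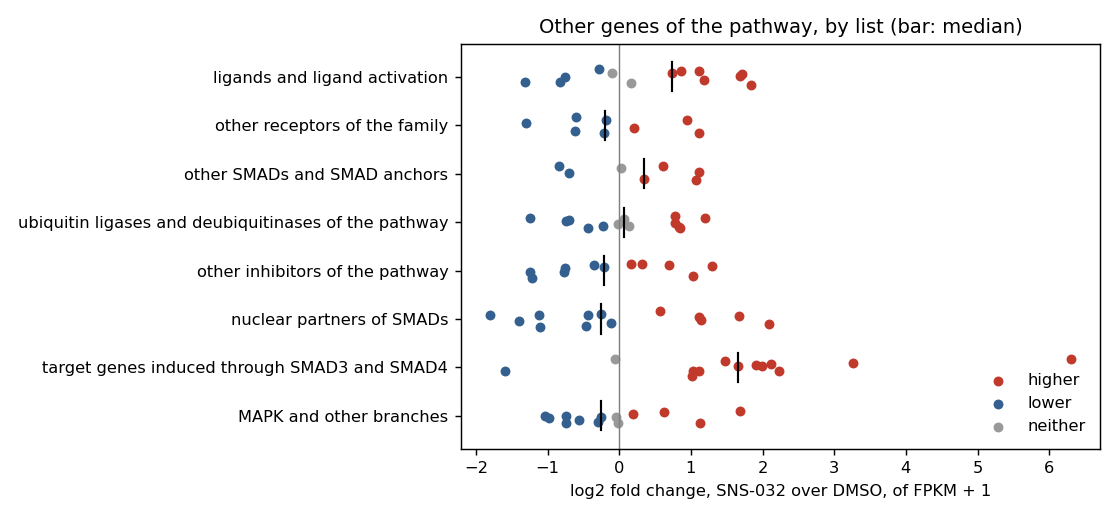
Log2 fold changes of FPKM + 1, SNS-032 over DMSO, of the tested genes of each pathway list, 1 point per gene with a bar at the median, in red where higher, blue where lower and grey where past neither side at an adjusted p of 0.05 from limma. All lists spread to both sides of 0, while the list of SMAD3 and SMAD4 target genes has a single gene called lower.

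The genes whose values ran most like those of SMAD7 and SKIL were sought among 9154 genes by the Euclidean distance over the 6 libraries on centred log2 values. AP1S3, a clathrin adaptor subunit, LOC100652901 and PNO1, a ribosome assembly factor, were nearest to SMAD7, at distances of 0.101, 0.104 and 0.124. The likeness to SMAD7 holds only on the log2 scale with 1 FPKM added, since on FPKM these genes were 2.66-fold, 2.41-fold and 2.38-fold higher after SNS-032 and SMAD7 was 9.0-fold higher. PMAIP1, which encodes the pro-apoptotic protein NOXA, CEBPG, a leucine zipper transcription factor, and SNRNP27, a spliceosome protein, were nearest to SKIL, at 0.0511, 0.0565 and 0.0586. PMAIP1 had 80.96, 82.62 and 86.34 FPKM after SNS-032 and 57.55, 50.16 and 52.53 FPKM with DMSO. With 6 libraries in 2 groups, such a distance rests mainly on the size of the treatment difference.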

How the data were processed

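RNA of REH cells was isolated with TRIzol and sequenced on libraries made by BGISEQ protocols. The authors filtered the reads, mapped them with Bowtie2 and HISAT and deposited FPKM values from RSEM, rounded to 2 decimals, while HISAT2 2.0.4 and the build GRCh38.p12 are listed in the submitters' processing notes. The annotation and any use of strand are not given in the sources used here. The deposited table also holds a log2 fold change, a p-value and a q-value per gene from the authors' own comparison, which were not used. One label field spells the agent SNA-032, and groups follow the sample titles.

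Values were tested as log2(FPKM + 1) with limma 3.58.1 in R 4.3.3 for the 12239 genes that averaged 1 FPKM or more under 1 treatment or both. Prior variance followed the mean (trend) and was fitted robustly, and p-values were adjusted by Benjamini-Hochberg across these genes. The test was checked on simulated data made from genes at 1 FPKM or more with DMSO, of which few were changed. In the real data most genes tested were called, and SMAD7 was below 1 FPKM with DMSO. The check does not cover these situations. Ratios within a library were compared on the log2 scale with an exact permutation test in scipy 1.17.1. The paper names no test for the RNA-seq values. Named list genes are up to 2 rises and 2 falls per list that passed the test and reached 5 FPKM in the higher treatment, taken by size of change, and the 3 genes nearest to SMAD7 and to SKIL. List symbols were matched to the table, 1 of them through its Entrez number. The members and lists were chosen with earlier results of these data known, and the lists come from textbook knowledge. Gene positions are from GENCODE v29 and start windows from RefSeq. Alternatives were a pseudocount of 0.1, no filter, a total of 1e+06 per library, median-ratio scaling, a replicate block, a constant prior variance and leaving out each library, and, chosen after the data were seen, a filter on the mean of all libraries. Results for a few named genes are not reported here.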

Additional observations from a re-analysis of the deposited data

How the results depend on the processing

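All 116 log2 fold changes of tested members under the alternatives kept their direction and their call. The members called numbered 5 higher and 4 lower under each alternative that tested the same 9 genes. They were 6 higher where SKI also passed, without a filter or with libraries rescaled to a total of 1e+06, and 4 higher with the filter on the mean of all libraries, under which SMAD7, at 0.967 FPKM over the 6 libraries, was not tested. Leaving out single libraries gave log2 fold changes of 1.94 to 1.98 for TGFBR2, 1.09 to 1.25 for SMAD7 and −0.57 to −0.43 for TGFB1. Over all tested genes the median was −0.14 on the log2 scale as deposited and −0.11 with either rescaling. Without the filter 6804 genes were higher and 6312 lower. Replicate numbers are shared by the treatments, but same-numbered libraries did not deviate together (r across genes of −0.119, 0.014 and −0.016), so they were not taken as pairs. With the replicate block 4862 genes were higher and 5989 lower, and the calls of the members were the same. Library depth is unknown, which limits SMAD7 and SKI most.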
